A study of Mus musculus with 9 samples.

Results

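Runx, Tead and Srf family transcription factors are partners of MyoD1 in muscle cells, and the 9 genes described here encode members of these families and factors that work beside them. They are Runx1, Runx2, Runx3, Tead1, Tead4, Srf, Mrtfa, Meis1 and Klf5. A locus was taken as the gene with 10 kb on each side, on the mouse build mm10 (the assembly GRCm38) with the GENCODE M21 annotation. MyoD1 peaks overlapping a locus by 1 bp or more were counted, which gave 290 of the 116126 peaks in the 6 lists. Peaks that overlapped or touched were merged over the 6 libraries into regions, and 126 of 58309 regions lay at the 9 loci.

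MyoD1 was mapped by CUT and RUN, in which an antibody carries micrococcal nuclease to a protein on chromatin and the DNA cut free is sequenced. All 6 libraries came from C2C12, a mouse myoblast line, in a clonal derivative with a Flag and Halo tag on the endogenous Myod1 gene and an added Flag-Halo MyoD1 transgene under the doxycycline-responsive TRE3GS promoter. Both groups carried both alleles, were placed in differentiation medium at the start, and were collected after 6 h, with doxycycline throughout (+dox, n = 3) or without it (no dox, n = 3). The anti-Flag antibody read tagged endogenous and induced MyoD1 together. Libraries of untagged wild-type cells (n = 3) were not analysed here, and the values below therefore have no background level beside them.

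The Runx factors bind DNA through the Runt domain together with the partner Cbfb and are best known for roles in blood (Runx1), bone (Runx2) and T cells (Runx3). Tead factors bind the MCAT element of many muscle genes and recruit the cofactors Yap1, Wwtr1 (Taz) or the Vgll proteins. Srf binds the CArG box of actin and muscle genes, and Mrtfa is the coactivator that carries the state of the actin pool to Srf. Meis1 is a homeodomain factor that pairs with Pbx proteins, and Klf5 is a zinc finger factor of the Krüppel-like family. Such factors are known for acting beside MyoD1 at muscle enhancers, and the data here show MyoD1 peaks at the genes that encode them.

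The lists differed in length and depth within the groups, and this touches each comparison between them. The 3 no dox lists held 9389 to 13877 peaks at depths of 4297000 to 4667000 alignments. The +dox replicates 1, 2 and 3 held 12536, 13260 and 53661 peaks at 2868000, 3597000 and 8030000 alignments. Depths were derived from the step between the listed maximum signals. Other muscle loci were counted for reference. The locus of Myod1 had 2 or 3 peaks in every library, that of Cdh15 had 1 or 2 and that of Des had 1 to 3. That of Myog, the differentiation factor myogenin, had 1, 3 and 1 without dox and 0, 0 and 2 with dox.

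Reference sequences around the maxima of some regions at these genes are printed below. Each line below holds 300 bases of GRCm38, plus strand, 5′ to 3′, centred on the maximum of the highest peak of a region. Capitals mark, on either strand, CAGCTG (the E-box that MyoD1 prefers), TGTGGT (RUNX), GGAATG (TEAD), TGANTCA (AP-1) and the CArG box. The first set comes from regions at the top of their loci: the Srf intron at chr17:46553076-46553375, the Runx2 intron at chr17:44508226-44508525, the Tead1 intron at chr7:112883976-112884275 and the Tead4 intron at chr6:128265226-128265525. The leading windows of the other loci are not printed. Those of Runx1 and Meis1 held 0 CAGCTG, and those of Runx3, Mrtfa and Klf5 held 1, 2 and 1. The Srf promoter at chr17:46556176-46556475 was added after its values were seen, because it holds Srf's own recognition element.
Srf intron: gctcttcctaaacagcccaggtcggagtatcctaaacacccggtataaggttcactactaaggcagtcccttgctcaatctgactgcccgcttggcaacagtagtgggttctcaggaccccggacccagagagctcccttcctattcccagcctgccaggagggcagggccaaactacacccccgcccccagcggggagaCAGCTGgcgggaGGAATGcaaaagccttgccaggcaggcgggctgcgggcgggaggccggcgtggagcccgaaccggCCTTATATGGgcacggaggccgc
Runx2 intron: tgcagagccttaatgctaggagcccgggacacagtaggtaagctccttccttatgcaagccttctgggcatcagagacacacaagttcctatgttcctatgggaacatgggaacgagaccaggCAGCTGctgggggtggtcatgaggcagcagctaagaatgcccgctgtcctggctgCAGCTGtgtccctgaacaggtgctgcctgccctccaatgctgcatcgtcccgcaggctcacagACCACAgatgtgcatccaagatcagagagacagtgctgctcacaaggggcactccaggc
Tead1 intron: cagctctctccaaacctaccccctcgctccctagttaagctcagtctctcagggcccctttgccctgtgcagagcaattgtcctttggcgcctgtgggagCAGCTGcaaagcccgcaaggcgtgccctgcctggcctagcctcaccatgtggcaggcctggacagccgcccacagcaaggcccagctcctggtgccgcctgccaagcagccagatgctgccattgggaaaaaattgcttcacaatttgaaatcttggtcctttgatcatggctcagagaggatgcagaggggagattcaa
Tead4 intron: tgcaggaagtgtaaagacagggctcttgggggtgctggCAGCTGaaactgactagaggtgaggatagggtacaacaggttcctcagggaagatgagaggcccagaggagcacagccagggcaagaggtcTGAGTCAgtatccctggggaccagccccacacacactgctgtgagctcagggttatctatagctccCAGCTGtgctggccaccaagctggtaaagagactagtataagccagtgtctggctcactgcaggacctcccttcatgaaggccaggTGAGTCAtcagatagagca
Srf promoter: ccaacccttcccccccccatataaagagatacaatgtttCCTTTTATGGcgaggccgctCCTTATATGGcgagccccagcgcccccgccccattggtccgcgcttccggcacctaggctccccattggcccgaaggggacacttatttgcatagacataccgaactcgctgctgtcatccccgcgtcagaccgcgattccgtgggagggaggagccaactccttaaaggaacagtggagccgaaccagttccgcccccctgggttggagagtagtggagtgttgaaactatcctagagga

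CAGCTG stood within 50 bp of the maximum in the Srf, Runx2 and Tead1 introns, counted from the first base of the motif. The Srf intron carried 1 CAGCTG that started 50 bp from the maximum, a GGAATG 62 bp from it and a CArG box 127 bp from it. The Runx2 intron carried 2 CAGCTG, at -27 and 28 bp. The Tead4 intron carried 2 CAGCTG and 2 TGANTCA. The Srf promoter window held 2 CArG boxes and no CAGCTG.

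The second set comes from regions recovered with dox by the consensus rule of the study. A region called in at least 2 of 3 libraries of a group is a consensus region, no dox consensus regions are the Core targets, and +dox consensus regions overlapping no Core target are the Expanded targets. The windows are in Runx1 at chr16:92788476-92788775, Runx2 at chr17:44677826-44678125 and Mrtfa at chr15:81106026-81106325 and chr15:81137276-81137575, all 4 in introns.
Runx1 Expanded: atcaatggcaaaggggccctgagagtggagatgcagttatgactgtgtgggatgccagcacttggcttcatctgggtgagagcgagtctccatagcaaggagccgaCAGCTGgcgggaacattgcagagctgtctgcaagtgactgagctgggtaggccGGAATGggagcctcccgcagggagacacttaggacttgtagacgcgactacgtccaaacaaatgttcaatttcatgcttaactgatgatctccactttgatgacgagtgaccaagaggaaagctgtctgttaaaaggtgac
Runx2 Expanded: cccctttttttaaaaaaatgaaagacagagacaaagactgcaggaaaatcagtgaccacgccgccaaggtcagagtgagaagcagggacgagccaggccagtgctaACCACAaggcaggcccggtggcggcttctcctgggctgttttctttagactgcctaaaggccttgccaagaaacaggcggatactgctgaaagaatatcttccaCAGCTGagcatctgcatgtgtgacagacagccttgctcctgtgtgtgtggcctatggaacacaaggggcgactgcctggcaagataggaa
Mrtfa Expanded, near: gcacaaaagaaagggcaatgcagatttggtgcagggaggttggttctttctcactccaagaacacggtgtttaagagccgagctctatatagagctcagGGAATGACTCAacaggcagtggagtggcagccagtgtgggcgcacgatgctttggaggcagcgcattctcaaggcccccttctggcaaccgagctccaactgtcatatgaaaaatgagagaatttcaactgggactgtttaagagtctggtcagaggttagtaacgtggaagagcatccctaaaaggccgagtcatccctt
Mrtfa Expanded, far: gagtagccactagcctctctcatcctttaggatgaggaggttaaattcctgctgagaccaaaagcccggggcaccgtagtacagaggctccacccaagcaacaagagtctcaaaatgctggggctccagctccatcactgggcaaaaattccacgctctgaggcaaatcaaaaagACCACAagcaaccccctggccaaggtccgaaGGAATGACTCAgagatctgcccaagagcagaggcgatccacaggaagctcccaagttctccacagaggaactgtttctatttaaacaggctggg

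The Runx1 and Runx2 windows each held 1 CAGCTG. The Mrtfa windows held none. In each of the Mrtfa windows the end of a GGAATG was the start of a TGANTCA, so that both read GGAATGACTCA.

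MyoD1 peaks met the consensus rule at 8 of the 9 loci at endogenous levels. Counting Core targets, Runx1 had 8, Runx2 had 6, Tead1 and Tead4 had 3 each, Runx3, Srf and Mrtfa had 2 each, Klf5 had 1 and Meis1 had 0. A Core target was found at 35.4% of all 21924 protein-coding loci. The same 8 loci held a region called in all 6 libraries, against 21.7% of protein-coding loci. The part of locus length in these shares was not tested, and the median locus was 159 kb among the 9 and 37.4 kb among all protein-coding genes.

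**Figure D1:**
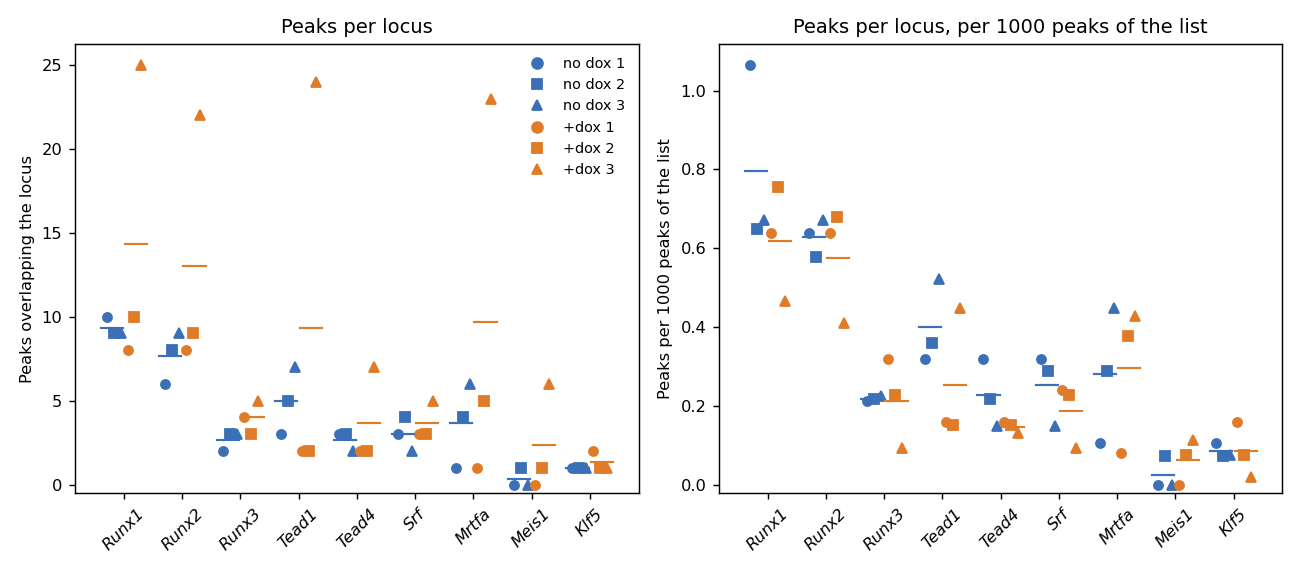
Peaks overlapping each locus in each library, as counts (left) and per 1000 peaks of the library's list (right), with horizontal bars for the group means (n = 3). In the counts +dox 3 stands above the other 5 libraries at 8 of the loci, and per 1000 peaks it is the lowest of the 6 at Runx1, Runx2, Runx3, Tead4, Srf and Klf5.

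Peaks per locus did not separate the groups at any of the 9 genes. No locus had more peaks in every +dox library than in every no dox library, and none had fewer, where 4.29% and 0.0127% of the 15740 protein-coding loci with a peak did. Over the 9 loci together the no dox lists had 29, 38 and 39 peaks and the +dox lists 30, 36 and 118. The means were 35.3 ± 5.51 and 61.3 ± 49.2 peaks (SD, n = 3 each), and +dox 3 alone stood outside the range of the rest. Without +dox 3 the difference of 26 peaks became -2.33. As a share of each list, the loci took 0.309%, 0.274% and 0.291% without dox and 0.239%, 0.271% and 0.220% with dox, so that the +dox lists were lower in 3 of 3 libraries, with 0.271% against 0.274% as the nearest values. With all lists cut to an equal length that difference shrank from -0.0477 to -0.0107 percentage points.

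Most regions at the loci were seen in few libraries. Of the 126 regions, 16 (12.7%) were called in all 6 libraries and 77 (61.1%) in 1 library, against 8.30% and 67.8% of all regions. In +dox 3 alone 68 regions (54.0%) were called, against 59.2% of all regions. The remaining 33 were called in 2 to 5 libraries. The maximum of 106 regions lay in an intron. The share over all regions was not computed, and a locus was by definition a gene with its flanks.

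Height was compared as the percentile of a peak's maximum signal within its own list, since the signal has no spike-in scale. Over the 16 regions called in all 6 libraries, 4 had higher percentiles in every +dox library than in every no dox library and 0 had lower ones. Among all 4838 regions called in all 6 libraries, 23.7% were higher and 0.0413% were lower by the same rule, so the 4 of 16 stood near the background. The mean difference was above 0 in 11 of the 16 regions and in 76.1% of all such regions, with medians of 4.99 and 6.40 percentile points. Without +dox 3, 4 of 16 regions at the loci were higher and 4 lower, against 24% and 9.77% of all shared regions. The 4 lower ones lay at Runx1 and Runx2. With fewer libraries, groups also separate more readily by this rule. Ranked among the 4838 shared regions alone, 0 of the 16 separated the groups in either direction, against 3.56% higher and 4.44% lower of all. The exact two-sided permutation test over the 20 assignments of 3 and 3 libraries cannot give a p below 0.1, and the smallest adjusted p over all 4838 regions was 0.421.

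**Figure D2:**
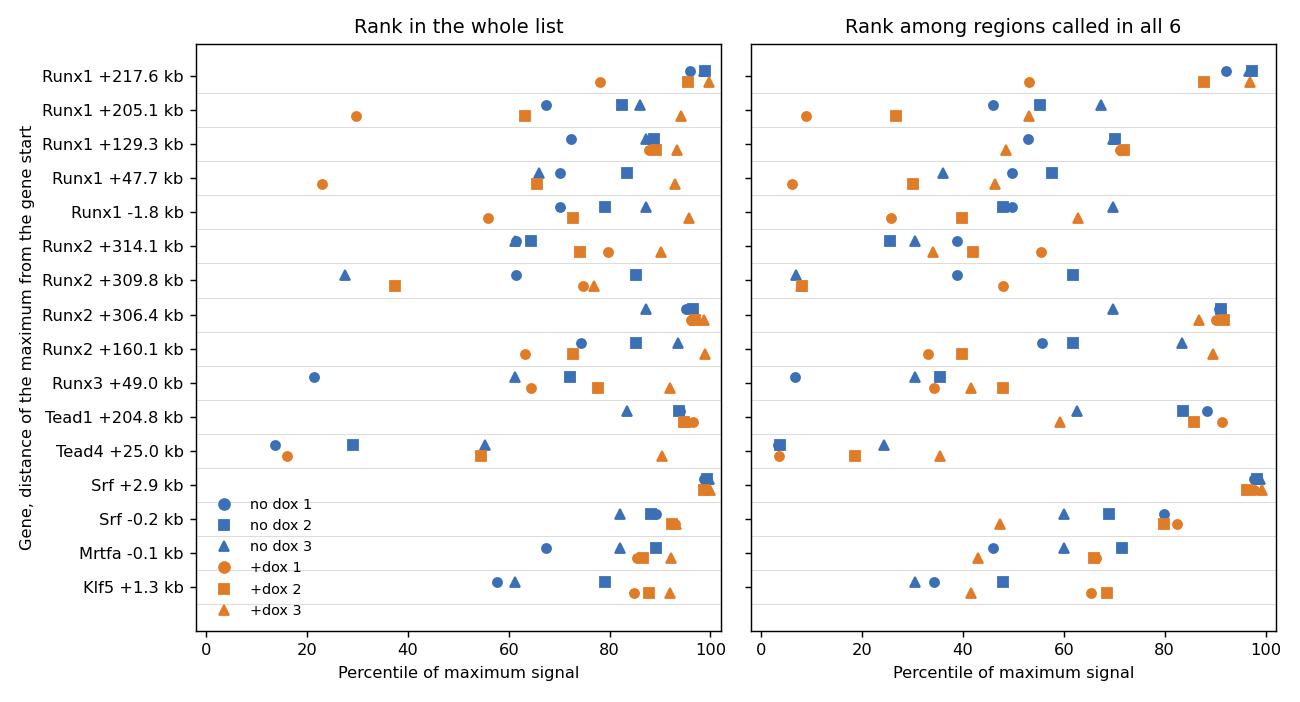
Percentile of maximum signal in each library for the 16 regions called in all 6, each named by its gene and by the distance of its maximum from the gene start. Ranks are within the whole list (left) and among the 4838 shared regions alone (right). The Srf intron region lies above 98 in the whole list in every library, and no region separates the groups on the right.

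Runx1 was the locus with most shared regions, and at most of them the +dox libraries spanned the no dox values. It had 5 regions called in all 6 libraries, the most of any of the 9. The highest lay at chr16:92607801-92612950, in an intron 217573 bp downstream of the gene start. Its percentiles were 95.9, 98.9 and 98.8 without dox and 78.2, 95.5 and 99.7 with dox. At its maximum stood 122, 266 and 146 alignments without dox and 55, 156 and 532 with dox. The values of +dox 1 are those of a separate neighbouring peak in the merged region, 216249 to 216948 bp from the gene start, and its peak over the stated maximum had 30 alignments and a percentile of 58.4. The +dox libraries held both the lowest and the highest values, and the groups overlapped (difference -6.74, exact permutation p = 0.6, adjusted p = 0.893). The difference was -0.256 without +dox 1 and -11.0 without +dox 3. The 300 bases at its maximum held none of the 5 motifs.

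At the other shared Runx1 regions the groups overlapped too. The region at chr16:92620451-92623000 had percentiles of 67.5, 82.5 and 85.9 without dox and 29.7, 63.2 and 94.2 with dox. That at chr16:92777751-92779900 had 70.2, 83.5 and 66.0 without dox and 23.0, 65.7 and 93.0 with dox. In both, +dox 1 was lowest and +dox 3 highest of the 6. The region at chr16:92827251-92828950, at -1777 bp from the gene start, showed the same extremes, with 55.8 in +dox 1 and 95.7 in +dox 3. The region at chr16:92696451-92699500 covers an internal Runx1 promoter, with the maximum in a UTR, and had 72.4, 88.8 and 87.1 without dox and 87.8, 89.1 and 93.4 with dox. There the +dox values were the closer to each other and overlapped the no dox values narrowly. Ranked among shared regions alone, the +dox minus no dox difference was below 0 in 5 of the 5 Runx1 regions, from -26.7 to -0.417 percentile points, with overlapping groups in each.

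Runx1 also held 2 of the 3 regions that had a peak in every +dox library and in no library without dox. Such regions made up 1.09% of all 58309 regions, and the opposite pattern made up 0.00858% and was found at none of the 9 loci. The region at chr16:92788301-92788850, 37523 bp downstream of the gene start, had percentiles of 49.3, 54.4 and 87.9 in +dox 1, 2 and 3. Its maxima held 24, 28 and 52 alignments. The region at chr16:92623301-92624650 had percentiles of 52.8, 12.5 and 77.0, and maxima of 26, 12 and 28 alignments. The 300 bases around its maximum carried 2 TGTGGT, 1 GGAATG and 1 TGANTCA. In windows of this length TGTGGT was present in 20.6% of the 126 regions and in 25.4% of all regions with a sequence. In each of the 3 +dox libraries the leading Runx1 region stood higher than both Runx1 regions called with dox alone.

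Runx2 showed a cluster of shared regions near the end of the gene. In all, 3 neighbouring regions lay 306421 to 314121 bp downstream of the gene start, all in introns. The highest, at chr17:44507801-44509050, had percentiles of 95.2, 96.6 and 87.1 without dox and 96.1, 97.0 and 98.7 with dox, and the groups overlapped, since no dox 2 stood above +dox 1. The region at chr17:44500101-44501100 separated the groups, with 61.5, 64.3 and 61.2 without dox and 79.6, 74.1 and 90.1 with dox. Its mean was 62.3 ± 1.75 without dox and 81.3 ± 8.12 with dox (SD, n = 3 each), which differ by 19.0 (exact permutation p = 0.1, adjusted p = 0.421). Among shared regions alone it had 38.7, 25.5 and 30.4 without dox and 55.5, 42.0 and 34.1 with dox, and the groups overlapped. Its window carried 2 TGANTCA and 1 GGAATG and no CAGCTG. The third, at chr17:44504401-44505500, ranged from 27.5 to 85.3 without dox and from 37.4 to 77.0 with dox. The other shared region, at chr17:44654151-44655250, had 74.2, 85.3 and 93.5 without dox and 63.1, 72.7 and 99.0 with dox, in overlapping groups.

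The third region of this kind, with peaks in every +dox library alone, was in a Runx2 intron. It lay at chr17:44677651-44678400, with percentiles of 40.6, 54.4 and 75.3 in +dox 1, 2 and 3 and maxima of 20, 28 and 26 alignments. The Runx2 locus overlaps the protein-coding gene Supt3, so regions there cannot be given to Runx2 alone. A second Expanded region of the locus, at chr17:44776651-44777750, lay within 1 kb of a Supt3 start site and had a peak in 1 no dox library.

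**Figure D3:**
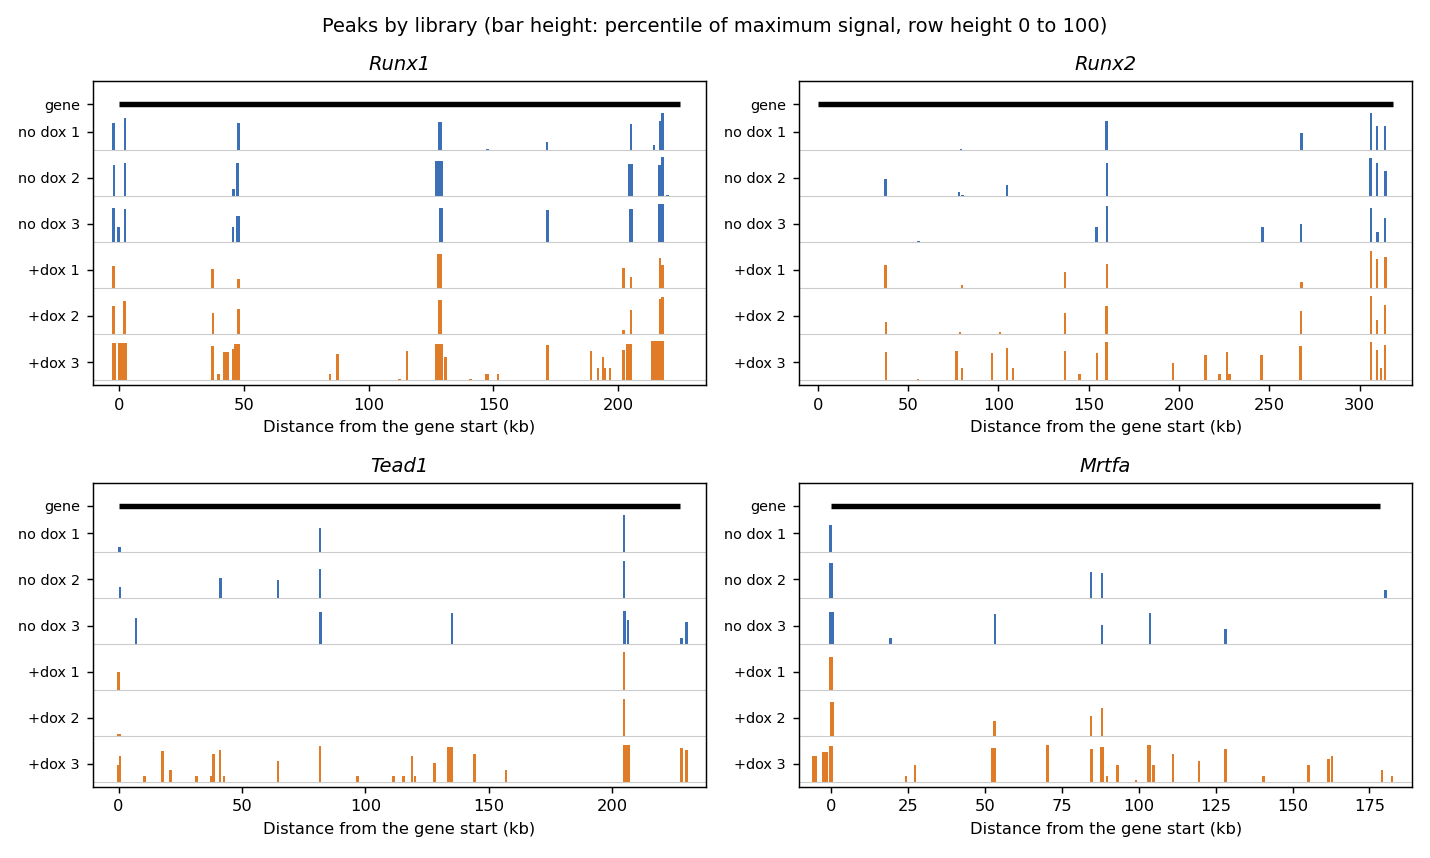
Peaks in each library along Runx1, Runx2, Tead1 and Mrtfa by distance from the gene start in kb, in the direction of transcription. The black bar is the gene, and bar height is the percentile of maximum signal from 0 to 100 within each row. Tead1 and Mrtfa have 1 shared site each in all 6 libraries, and the 24 and 23 peaks of +dox 3 there are mostly found in no other library.

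Runx3 had fewer sites, and 1 region was shared by all 6 libraries. It lay at chr4:135168701-135170500, in an intron 48999 bp from the gene start, with percentiles of 21.4, 72.2 and 61.2 without dox and 64.3, 77.7 and 92.0 with dox. The groups overlapped, since no dox 2 stood above +dox 1 (mean difference 26.4, exact permutation p = 0.2, adjusted p = 0.561), and without no dox 1 the difference was 11.3. The locus had 2, 3 and 3 peaks without dox and 4, 3 and 5 with dox (exact permutation p = 0.3, adjusted p = 1). A Core target at the Runx3 promoter, chr4:135119401-135120850, was called in 5 libraries, at 51.0 and 47.9 in no dox 2 and 3 and 45.3, 65.7 and 84.0 with dox.

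Tead1 had a single strong site in all libraries and many that were seen in +dox 3 alone. The shared region lay at chr7:112883451-112886300, in an intron 204808 bp from the gene start. Its percentiles were 93.9, 93.8 and 83.5 without dox and 96.6, 94.7 and 95.2 with dox, so the groups separated, with 94.7 and 93.9 as the nearest values. The mean was 90.4 ± 6.00 without dox and 95.5 ± 0.999 with dox (SD, n = 3 each), which differ by 5.08 (exact permutation p = 0.1, adjusted p = 0.421). The difference was 1.62 without no dox 3 and -0.263 with lists of equal length. Peaks per locus were 3, 5 and 7 without dox and 2, 2 and 24 with dox, and 15 of the 24 Tead1 regions were called in +dox 3 alone.

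Tead1 also had the region of the 126 with the largest excess of no dox calls over +dox calls. This region, at chr7:112760401-112761500 in an intron, was called at 61.5, 74.2 and 82.0 in no dox 1, 2 and 3, in neither +dox 1 nor +dox 2, and at 92.5 in +dox 3. It carried 2 CAGCTG around its maximum. Without +dox 3, Tead1 was the 1 of the 9 loci with fewer peaks in every +dox library than in every no dox library. The share of all protein-coding loci in that setting was not computed. The +dox lists left were those of lowest depth, at 2868000 and 3597000 alignments. By height percentile, which is another measure than peaks per locus, 9.77% of all shared regions were then lower. Tead1 had no Expanded target.

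Tead4 had a leading region at chr6:128264551-128265800, in an intron, which was called in 5 libraries. Its percentiles were 68.9, 67.4 and 73.4 without dox, 71.1 in +dox 2 and 93.9 in +dox 3, and +dox 1 had no peak there. The region called in all 6, at chr6:128275301-128276500, lay at -199 bp from an internal Tead4 start site and had the lowest mean percentile of the 16. It had 13.6, 29.1 and 55.3 without dox and 16.0, 54.4 and 90.5 with dox, in overlapping groups. No Expanded target lay at Tead4.

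The highest MyoD1 peak of all 9 loci was in Srf, and it stood above the percentile of 98 in every library. The region at chr17:46550451-46554300 had its maximum in an intron, 2949 bp downstream of the gene start. Percentiles were 98.8, 99.2 and 99.6 without dox and 99.1, 98.7 and 99.9 with dox, with 238, 328 and 238 alignments at the maximum without dox and 412, 322 and 818 with dox. All 6 maxima lay within 100 bp of each other, in the window with CAGCTG and a CArG box printed above. The difference was 0.0482 percentile points (exact permutation p = 1, adjusted p = 1), and near the top of the list a percentile leaves little room to move.

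Srf had a further shared region over its own promoter. It lay at chr17:46554701-46556900, with the maximum at -151 bp from the gene start, also within an intron of the noncoding gene Gm26904. Percentiles were 89.2, 88.3 and 82.0 without dox and 93.0, 92.4 and 93.2 with dox, so the groups separated. The mean was 86.5 ± 3.95 without dox and 92.8 ± 0.399 with dox (SD, n = 3 each), which differ by 6.36 (exact permutation p = 0.1, adjusted p = 0.421). Among shared regions alone the values were 79.8, 68.9 and 59.9 without dox and 82.4, 79.9 and 47.4 with dox, where +dox 3 was the lowest of the 6. The difference was 4.10 without no dox 3 and -1.76 with lists of equal length. The Srf locus also overlaps Cul9 and Ptk7. The maximum of the Srf intron region also lay within Gm26904 and within 1 kb of a start site of Mir6976, so that region cannot be given to Srf alone.

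**Figure D4:**
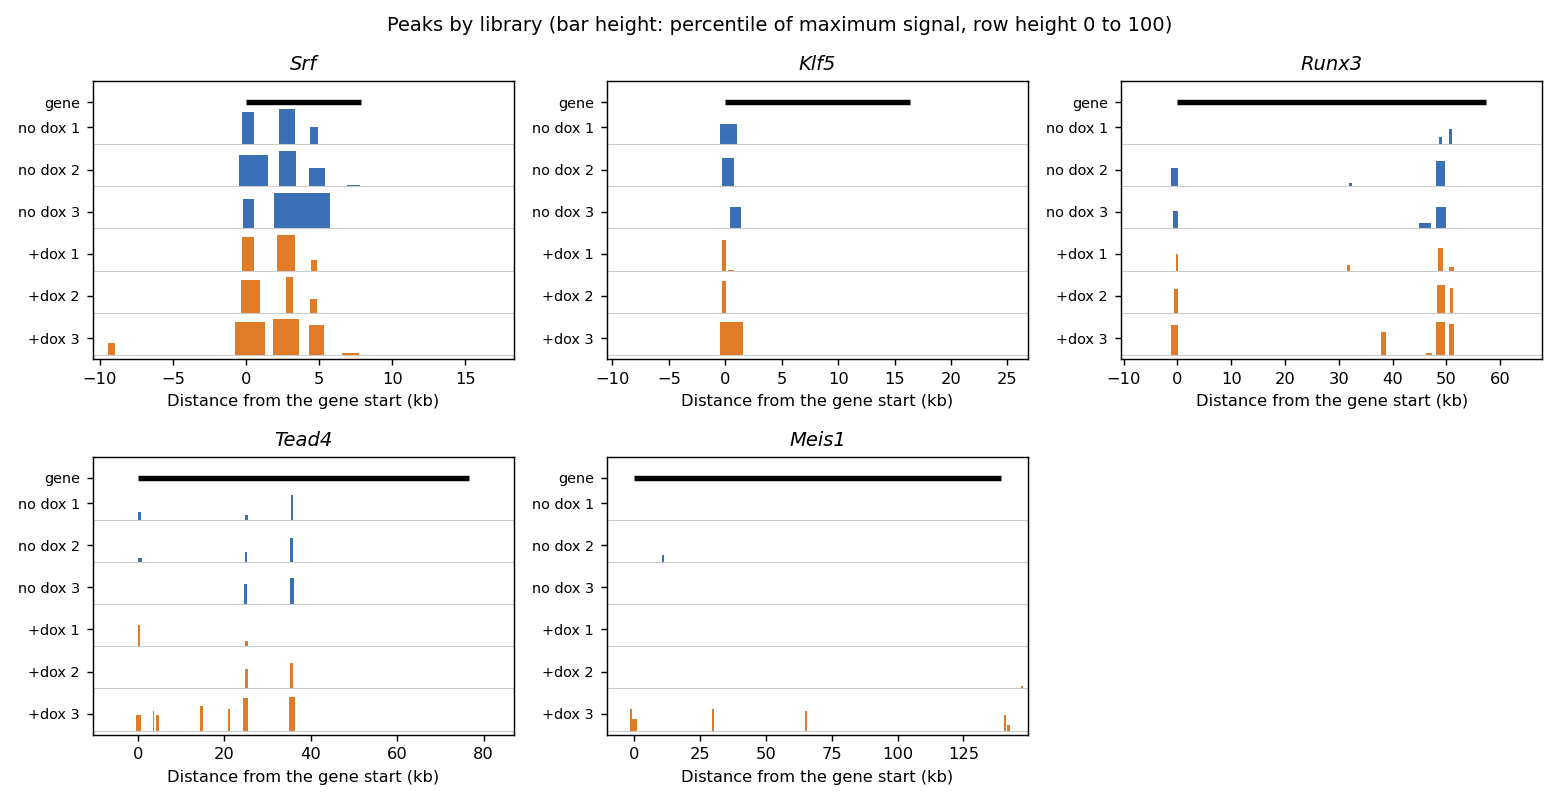
Peaks in each library at Srf, Klf5, Runx3, Tead4 and Meis1 by distance from the gene start in kb, drawn with the black bar as the gene and bar height as the percentile of maximum signal from 0 to 100. Srf shows the same pair of sites in all 6 libraries, at the promoter and 2949 bp downstream, and Meis1 has no peak in 3 of the 6.

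Mrtfa differed from Srf in having its only shared site at the promoter. The region at chr15:81189901-81191550, with the maximum at -119 bp from the gene start in an exon of the noncoding gene 4930483J18Rik, had percentiles of 67.5, 89.3 and 82.0 without dox and 85.4, 86.6 and 92.3 with dox. The groups overlapped (difference 8.52, exact permutation p = 0.3, adjusted p = 0.678), and among shared regions alone the difference was -0.761. Without no dox 1 it was 2.47 and without no dox 2 it was 13.4. Its window held none of the 5 motifs. Peaks per locus were 1, 4 and 6 without dox and 1, 5 and 23 with dox, and 17 of its 26 regions were called in +dox 3 alone. By mean percentile the leading region of the locus was such a region, at chr15:81120051-81120750, at 94.2 in +dox 3 with 96 alignments, and 2 CAGCTG started 7 and 17 bp from its maximum.

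Mrtfa held 2 of the 3 Expanded regions with the highest mean percentile in the +dox libraries that called them. The region at chr15:81105701-81106600 had 67.4 in no dox 2, 50.9 in +dox 2 and 85.6 in +dox 3. That at chr15:81137001-81138900 had 76.1 in no dox 3, 37.4 in +dox 2 and 88.4 in +dox 3. Each was thus called in 1 no dox library, at a higher percentile than in +dox 2. The locus overlaps the neighbouring gene Sgsm3.

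Meis1 had hardly any MyoD1 peak, and Klf5 had 1 region at its promoter. The Meis1 locus had 0, 1 and 0 peaks without dox and 0, 1 and 6 with dox, in 8 regions called in 1 library each. The highest percentile among them was 60.2, in +dox 3, with 16 alignments at the maximum. The peaks of no dox 2 and +dox 2 held 12 and 10 alignments.

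The Klf5 region lay at chr14:99298201-99300300, with percentiles of 57.7, 79.1 and 61.2 without dox and 84.8, 87.8 and 92.0 with dox. The groups separated, with means of 66.0 ± 11.5 and 88.2 ± 3.58 (SD, n = 3 each) that differ by 22.2 (exact permutation p = 0.1, adjusted p = 0.421). The peaks merged there did not share one position, since their maxima were spread over 1400 bp. In +dox 1 and 2 the higher peaks ran from -290 to 59 bp and from -290 to 109 bp of the gene start, while that of no dox 3 ran from 410 to 1409 bp and overlapped neither. Among shared regions alone Klf5 had 34.2, 48.0 and 30.4 without dox and 65.3, 68.5 and 41.5 with dox, with overlapping groups.

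The consensus sets at the 9 loci held 27 Core targets, 33 +dox consensus regions and 8 Expanded targets. The Expanded targets made up 24.2% of the +dox consensus regions there, against 38.5% over the genome. Runx1 had 3, Runx2 and Mrtfa had 2 each and Runx3 had 1, and the other 5 loci had none. All 8 had a peak in +dox 3, 5 of them were called in 3 +dox libraries, and 5 had a peak in 1 no dox library. Without +dox 3 their number was 5, and without no dox 2 it was 13. The share of Expanded targets over the genome has no value beside these counts, so they cannot be read as changes particular to the loci.

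RUNX and TEAD motifs were present at the 9 loci in shares close to those of all regions, and the AP-1 motif in a larger share. Within 100 bp of the maximum, CAGCTG was present in 34.9% of the 126 regions and in 30.1% of all regions with a sequence. TGTGGT was present in 16.7% and 18.1%, and GGAATG in 12.7% and 12.7%. At the factors' own genes, TGTGGT was present in 8 of the 56 Runx regions and GGAATG in 5 of the 31 Tead regions. TGANTCA, to which AP-1 binds, was present in 19.0% and 12.8%. The CArG box was present in 1.59%, or 2 regions, and 0.821%. Among regions called in all 6 libraries, TGANTCA was present in 6 of 16 (37.5%) at the loci and in 14.3% of all 4838, and CAGCTG in 50% and 48.3%. All 6 of those with TGANTCA lay at Runx1 and Runx2, and the shared regions of the other loci held none. Searched over the whole region with 100 bp on each side, the CArG box was present in 6 of the 16 (37.5%) and in 9.80% of the 4838. By that search CAGCTG was present in 63.5% of the 126 and 64.1% of all regions. It was present in 87.5% of the 16 and 85.4% of the 4838. In windows of 300 bases its shares were 38.9% and 37.4%, then 50% and 56.2%, in the same order. These shares are descriptions on both strands with no test, and neighbouring regions of 1 gene are not independent.

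**Figure D5:**
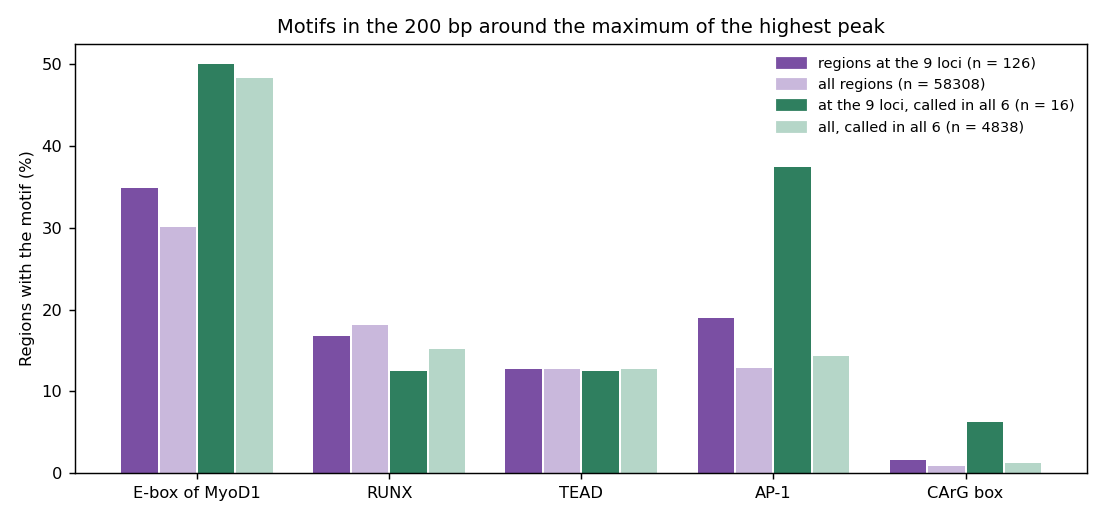
Percentage of regions with each motif in the 200 bp around the maximum, for the regions at the 9 loci, all regions, and those of each called in all 6 libraries. Bars start at 0 and numbers of regions are given in the key. The E-box, AP-1 and CArG bars of the 9 loci stand above those of all regions in both comparisons, while those of RUNX and TEAD stand level or below. The CArG bars of the 9 loci rest on 2 regions and 1 region, and the AP-1 bar of their shared regions on 6 regions of Runx1 and Runx2.

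Promoters made up a smaller share of the regions at these loci than of all regions. A maximum within 1 kb of an annotated start site was found in 20 of the 126 regions (15.9%) and in 27.1% of all regions. Among regions called in all 6 libraries the shares were 37.5% and 54.4%. These shares were not tested either, nor was the part of locus length in them.

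Some other genes of the same pathways had Core targets. A list of 39 genes held cofactors of the Runx and Tead factors, Srf and Mrtf targets and partners, and Meis, Pbx and Klf relatives. Of these, 24 had a Core target, against 35.4% of protein-coding loci, and 13 had an Expanded target, against 25.7%. A region called in all 6 libraries was found at 23, against 21.7% of protein-coding loci, and 1 gene, Runx1t1, had no region. The median locus of the list was 45 kb, and the part of length was not tested. They held 30 regions called in all 6 libraries, of which 9 were higher in every +dox library and 0 lower, beside the background of 23.7%. Wwtr1, the Tead coactivator Taz, was the 1 gene with more peaks in every +dox library, with means of 1 and 3.67, and 0 had fewer, beside 4.29% and 0.0127% of the protein-coding loci with a peak.

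The highest of these regions were at cofactors and targets of Tead and at relatives of Meis1. Vgll4, a Tead cofactor that competes with Yap1, had a region at 99.5, 99.4 and 96.6 without dox and 99.8, 99.7 and 99.6 with dox. Vgll3, of the same family, had 93.2, 94.4 and 97.2 without dox and 91.2, 93.9 and 97.9 with dox, in overlapping groups. Ankrd1, a muscle stress gene that Yap1 and Tead activate, had 93.2, 94.8 and 95.8 without dox and 83.3, 90.7 and 99.4 with dox. Pknox1 and Pknox2 are homeodomain relatives of the Meis factors. Pknox1 had 91.8, 93.6 and 93.9 without dox and 96.9, 93.9 and 97.1 with dox, and Pknox2 had 93.4, 97.2 and 98.4 without dox and 91.6, 93.2 and 98.8 with dox. Myocd, the Srf coactivator myocardin, had the only region of the list with peaks in every +dox library and in no library without dox, at percentiles of 9.05, 37.4 and 75.3.

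By peaks per 1000 peaks of each of the 6 lists, the protein-coding genes most like Runx1 were Rfx1, Smad3 and Prkag2, at Euclidean distances of 0.285, 0.297 and 0.301. Runx1 itself had 1.07, 0.649 and 0.671 without dox and 0.638, 0.754 and 0.466 with dox. Rfx1 had 1.07, 0.793 and 0.671 without dox and 0.558, 0.528 and 0.410 with dox, so that +dox 3 was the lowest library at both genes.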

How the data were processed

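With nf-core/cutandrun 3.2.2 on mm10, the authors aligned reads, masked a blacklist, normalised coverage by CPM, and ran SEACR in relaxed mode on every library separately. Each of the 6 deposited lists gives intervals with a total and a maximum signal per peak, and no control library for the calls is named. Here peaks were merged and ranked by maximum signal within a list (ties averaged), and depth in alignments was derived from the step between maxima, of which 100% in each list were whole multiples (within 2% of a step, plus rounding). GENCODE M21 gave 21924 protein-coding loci. Each comparison of 3 with 3 libraries used an exact permutation test (two-sided, 20 assignments), adjusted by Benjamini-Hochberg over all regions or loci. Replicates are labelled biological, in cultures of 1 clone.

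The members, lists and tests were chosen with earlier results of these data known. The regions described are the leading region of each locus by mean percentile, every shared region whose groups do not overlap, every region called in 3 of 3 libraries of 1 group and 0 of 3 of the other, the 3 highest Expanded regions, and the other shared regions of Runx1 and Runx2. Tead1's second region, Runx3's promoter region, the Supt3 region and the Srf promoter sequence were added after their values were seen. Motifs were searched on GRCm38. Functions were tested on simulated lists. Python 3.11.15, NumPy 2.4.6, pandas 2.3.3, SciPy 1.17.1 and matplotlib 3.10.9 were used.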

Additional observations from a re-analysis of the deposited data

How the results depend on the processing

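Of 364 recomputed values, 308 were labelled the same, 23 moved and 33 reversed. A count was the same within a fixed ratio of its main value, and a difference where its sign held, so sizes could change. Total peaks and share at the 9 loci were the same where they kept their sign and moved by less than the SD within groups. The direction of a difference here is +dox minus no dox. Counts of loci with more or fewer peaks have no share over all loci beside them in these settings, and counts of Expanded targets have no share over the genome. Leaving out 1 library at a time gave 4 to 8 regions higher and 0 to 4 lower with dox without overlap, 5 to 13 Expanded targets, 0 to 1 loci with more and 0 to 1 with fewer peaks, and a difference in peaks over the 9 loci of -2.33 to 41.7. The 4 lower regions, the fewer peaks at 1 locus and the -2.33 came without +dox 3, where 9.77% of all shared regions were lower, and the 8 higher regions came without no dox 2 and without +dox 1, where 35.8% and 32.1% of all were higher. At the Tead4 region shared by all, the difference was 11.4 without no dox 1, 32.3 without no dox 3, 39.8 without +dox 1 and 2.56 without +dox 3. The Srf intron difference ran from -0.294 to 0.338 percentile points, and differences in peaks ran from -0.333 to 8.17 at Runx1, -3 to 8 at Tead1, -0.667 to 1.83 at Tead4 and -0.667 to 10.3 at Mrtfa.

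With all lists at equal length, 0 regions were higher and 1 lower without overlap, the background being 1.97% and 6.29%. Expanded targets then numbered 4, the difference over the loci was -1 peaks and that in share was -0.0107 percentage points. Percentile differences were then -0.263 at Tead1, -0.156 at the Srf intron, -2.81 at Mrtfa and -1.76 at the Srf promoter, and peak differences were -1 at Runx1 and Tead1 and -0.333 at Runx2 and Srf. With 1 threshold for all lists, 1 region was higher against a background of 8.96%, 1 locus had more peaks, and peak differences were -0.667 at Tead1 and -0.333 at Tead4. Ranked among shared regions alone, 0 regions were higher, and differences were -0.469 at the Srf intron and -0.761 at Mrtfa. By total signal the Srf intron difference was -0.121. Per 1000 peaks, differences were -0.176 at Runx1, -0.0534 at Runx2, -0.00484 at Runx3, -0.148 at Tead1, -0.0814 at Tead4 and -0.0661 at Srf. With replicates 1 and 2 alone, 5 regions were lower against a background of 11.4%, 2 loci had fewer peaks, the difference over the loci was -0.5 peaks (an alternative chosen after seeing the data), that of the Srf intron was -0.0919, and those in peaks were -0.5 at Runx1 and Srf, -2 at Tead1 and -1 at Tead4. With 50 kb on each side 1 locus had more peaks and Expanded targets numbered 13. They numbered 3 where no peak in any no dox library was allowed. Over whole regions CAGCTG was present in 80 regions (63.5%) against 44 near the maximum, beside 64.1% and 30.1% of all regions with a sequence. The causes were not tested.

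The correlations of same-numbered deviations were 0.367, -0.00972 and 0.493, and those of other pairs ran from -0.491 to 0.162. No dox 1 and 3 correlated best with the +dox library of the same number, and no dox 2 with +dox 1. Whether replicate numbers pair the libraries was not tested. With the replicate number as a block, 8 regions were higher in every pair against 4, beside a background of 35.7%, and 1 locus had more peaks in every pair. The smallest sign-flip p is 0.25.

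Depth, between 2868000 and 8030000 alignments, limits the count of weak peaks. Peaks with 8 to 16 alignments at the maximum, as at Meis1, rest on few reads, and their absence from a list does not show that MyoD1 was absent. No comparison of 3 with 3 libraries could reach a p below 0.1.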

Other observations

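A TEAD motif that ran into an AP-1 motif, with the last 2 bases of GGAATG as the first 2 of TGANTCA, was present at both Mrtfa regions shown. Of the 126 regions at the 9 loci they were the 2 that held it, both within 100 bp of the maximum and over whole regions with 100 bp on each side. Among all 58308 regions with a sequence, 101 (0.173%) held it within 100 bp of the maximum and 332 (0.569%) over the whole region, on either strand. It started at -51 bp from the maximum in the region at chr15:81105701-81106600 and 56 bp after it in that at chr15:81137001-81138900. The pattern was noticed in the printed sequences and counted afterwards, so this is a description with no test.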
